A study of Homo sapiens with 8 samples.

Results

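The mitochondrial ribosomal protein (MRP) genes are the nuclear genes that encode the protein part of the ribosome inside mitochondria. The members were chosen by name and level: every protein-coding gene with a symbol that begins with MRPL or MRPS and a digit, with TPM (each gene's length-scaled share of the transcripts in a library) of 1 or more in at least 4 of the 8 libraries. Among the 20263 genes of the expression table, 78 had such a symbol, which is as many as the GENCODE 44 annotation lists, and all 78 passed the filter that 11725 genes passed in all. The lowest value of any member in any library was 7.19 TPM, so none passed through one group alone. By their place in the ribosome, 51 members belong to the large subunit and 26 to the small subunit. MRPS30 and MRPS18A are counted in the large subunit, where both proteins sit in spite of their names. MRPS36 is in neither count, since in mammals it is a component of the 2-oxoglutarate dehydrogenase complex.

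The libraries are RNA sequencing of PANC-1, an established human pancreatic cancer cell line. Cells of 4 libraries were treated for 24 h with 10 μM eupalinolide B (EB), a compound extracted from the plant Eupatorium lindleyanum, and cells of 4 libraries received the solvent DMSO for the same time. The study calls the libraries biological replicates, 4 per group, while its methods also mention triplicates for each group. Nothing states that they came from separate cultures, so the p-values below measure the spread between these libraries, which may be technical. PANC-1 is a single line, and a change in the RNA of every cell cannot be told apart from a change in how many cells carry it. Of the markers checked, the epithelial keratins KRT8, KRT18 and KRT19 were at 135.5 TPM or more in every library, while KRT7 and EPCAM were at 0.387 TPM or less and the leukocyte, endothelial, acinar and islet markers PTPRC, CD3E, PECAM1, PRSS1, CPA1, INS and GCG were listed at 0 throughout.

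Mitochondria keep a small genome that encodes core subunits of the respiratory chain and of ATP synthase. Its messenger RNAs are translated by a dedicated ribosome, whose small subunit binds and decodes the message and whose large subunit joins the amino acids and passes the chain out through an exit tunnel at the inner membrane. The ribosomal RNAs come from the mitochondrial genome, but every ribosomal protein is encoded in the nucleus, made in the cytosol and imported. Some of these proteins descend from the bacterial ribosome, and others are found only in mitochondria.

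One library stood apart. In DMSO replicate 4, transcripts of the mitochondrial genome took 39% of all TPM, against 17.0% to 21.1% in the other DMSO libraries and 11.6% to 20.3% in the EB libraries. TPM are shares of a fixed total, so a larger mitochondrial share leaves less for nuclear genes, and DMSO replicate 4 held the lowest DMSO value in 54 of the 78 members. Counts over the members, their subunits and the other gene lists are therefore also given where leaving out this library, or the mitochondrial transcripts, moved them.

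EB treatment was accompanied by higher levels of many MRP genes and lower levels of none that passed the test. By limma on log2(TPM + 1), with adjusted p-values under 0.05 over all genes tested, 36 of the 78 members (46.2%) rose, 0 fell and 42 did not pass in either direction. The background was 15.2% of all genes tested called higher and 25.1% called lower. At an unadjusted p under 0.05, limma gave 43 members higher and 0 lower. No share of all genes at that unadjusted threshold is given here, for the members or for the gene lists below. Counts at that threshold therefore cannot be read against a background. Limma with an intensity trend called 39 members higher and 0 lower, against 1828 higher and 2935 lower of the 11725 genes tested. The members' fold changes were positive in 70 and negative in 8, with a median log2 fold change of 0.41 against -0.11 over all genes tested, and ran from -0.36 in MRPL49 to 1.13 in MRPS18C. All 4 EB libraries lay above all 4 DMSO libraries in 39 members, a share to be read against the 16.6% of all genes tested that did so.

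The counts depended on the scaling. Without DMSO replicate 4, 38 members rose and the median was 0.34, and 35 of the calls were shared with the full set. Over all genes tested without that library, 15.7% were called higher and 36.4% lower. With the mitochondrial transcripts left out and the nuclear TPM rescaled, 29 members rose, 28 of them shared, with a median of 0.23, while the median of all genes moved to -0.28 and 12.3% of them were called higher and 41.3% lower. The members' median thus stood 0.51 above that of all genes on that scale and 0.52 above it on the deposited one. Under median-ratio scaling 56 members rose, against 25.9% of all genes called higher and 26.3% lower. By limma no member fell under any of these. The direction of the median turned under a single joint setting, added after seeing the data. In it both the mitochondrial transcripts and the trend with transcript length were removed. There 7 members rose and 19 fell, against 922 called higher and 4840 called lower of the 11712 nuclear genes tested. The medians were -0.14 for the members and -0.30 for all genes.

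**Figure D1:**
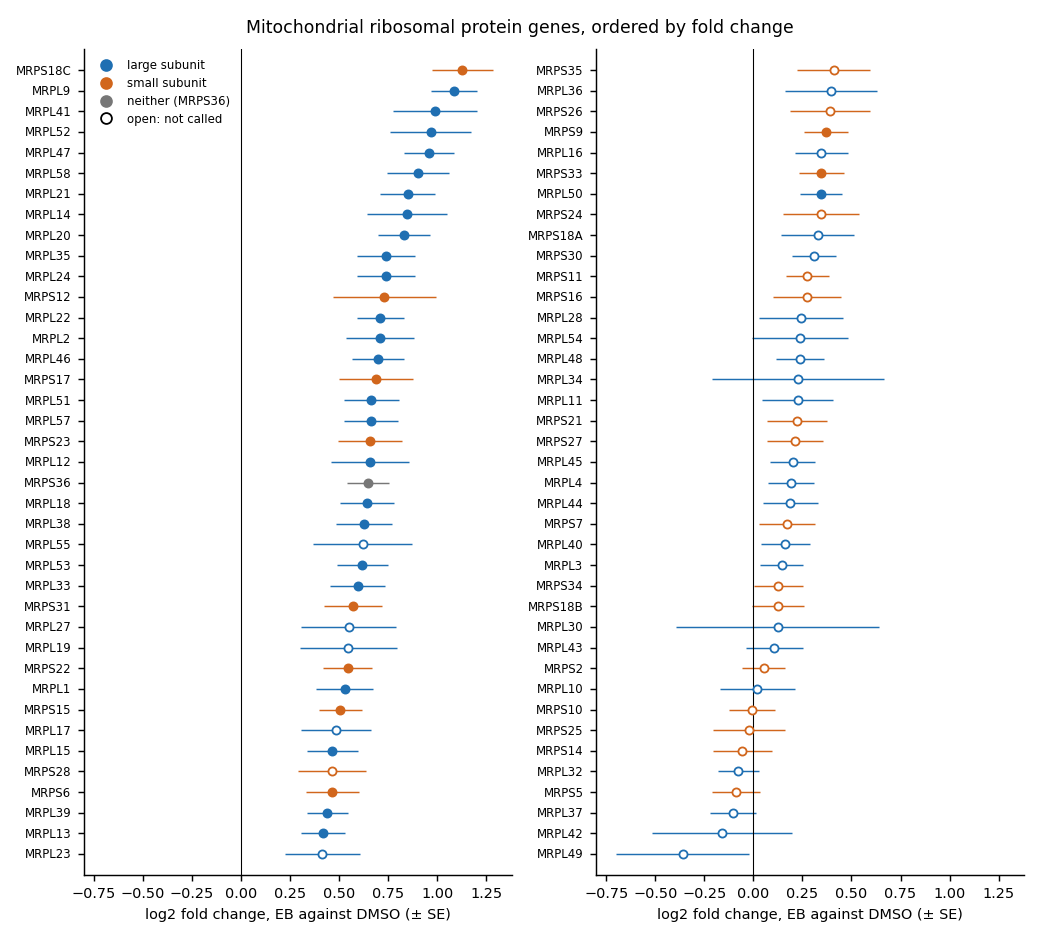
Log2 fold change of EB against DMSO for the 78 MRP genes, ordered from the highest at the top left (MRPS18C, 1.13) to the lowest at the bottom right (MRPL49, -0.36); points are limma estimates on log2(TPM + 1), bars are 1 standard error, colours mark the subunit and filled points have an adjusted p under 0.05. In the TPM as deposited, filled points lie on the positive side only, 36 in all, and the widest bars belong to MRPL30, MRPL34, MRPL42 and MRPL49. With mitochondrial transcripts and the length trend both removed, 7 members were higher and 19 lower, against 922 and 4840 of 11712 nuclear genes.

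Changes were small in size. Only MRPS18C and MRPL9 reached a fold change of at least 2, and no member passed the study's own thresholds of an unadjusted p under 0.05 with a log2 fold change beyond 1.5, which 0.537% of all genes tested passed on the higher side. Levels kept their order: the DMSO means ran from 13.8 TPM (MRPS23) to 260.7 TPM (MRPL4), an 18.8-fold range with a median of 62.8 TPM, and the EB means from 13.98 TPM (MRPL42) to 307.6 TPM (MRPS24), with a median of 85.0 TPM. Spearman's rho between the 2 sets of means was 0.95 over the 78 members, a description in which each gene's transcript length and annotation are shared by both groups. The median coefficient of variation between libraries was 14.5% in DMSO and 10.2% in EB.

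MRPS18C, the small-subunit protein that corresponds to bacterial S18, had the largest rise. Its level was 26.6, 18.4, 18.7 and 24.8 TPM in DMSO replicates 1 to 4 and 55.5, 43.0, 49.0 and 48.6 TPM in EB replicates 1 to 4. The EB libraries were all above the DMSO libraries, with a log2 fold change of 1.13 ± 0.16 (SE, limma adjusted p = 0.000739). The gene lies at chr4:83455932-83469735 on hg38, forward strand, and 83.6% of its canonical transcript overlaps exons of ABRAXAS1 on the opposite strand. ABRAXAS1, which encodes a DNA repair scaffold, went the other way, from 6.64 ± 1.05 TPM in DMSO to 2.46 ± 0.67 TPM in EB (SD, n = 4; log2 fold change -1.15, limma adjusted p = 0.000968). The strand setting of the counting is not given in the sources used here, so reads of this pair may not be separated.

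MRPL9, a large-subunit protein of bacterial descent, lies at chr1:151759647-151763496 on the reverse strand. Its DMSO libraries held 61.6, 63.3, 68.5 and 56.9 TPM, and its EB libraries 144, 136, 124 and 131 TPM. No value of one group came near the other, and the log2 fold change was 1.08 ± 0.12 (limma adjusted p = 0.00022). MRPL47, which descends from bacterial L29 and sits beside the exit tunnel, showed the tightest DMSO values of the large rises, at 65.5, 60.9, 63.1 and 62.2 TPM. Under EB it stood at 119, 108, 147 and 123 TPM, a log2 fold change of 0.96 ± 0.13 (limma adjusted p = 0.000589). Of the 8 members with the largest rise, these 3 were also the ones still called after the length correction described further on.

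MRPL41 and MRPL52 are proteins of the large subunit that bacteria lack. MRPL41 measured 140, 107, 101 and 71.0 TPM in DMSO and 232, 175, 247 and 169 TPM in EB, and MRPL52 measured 86.2, 65.3, 67.0 and 43.9 TPM in DMSO and 136, 112, 154 and 106 TPM in EB. In both, DMSO replicate 4 was the lowest DMSO library, and the log2 fold changes of 0.99 and 0.97 became 0.82 and 0.79 without it. MRPL58, known as ICT1, is a peptidyl-tRNA hydrolase that became a structural part of the large subunit. It rose from 78.5, 65.9, 70.2 and 48.3 TPM in DMSO to 129, 125, 125 and 109 TPM in EB, by 0.90 ± 0.16 on the log2 scale. MRPL21 and MRPL14, both of bacterial descent, rose by 0.85 each, from DMSO means of 52.2 ± 5.59 and 34.4 ± 9.16 TPM to EB means of 95.1 ± 13.2 and 61.5 ± 9.52 TPM (SD, n = 4). The groups were separate in each of these 5 genes.

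**Figure D2:**
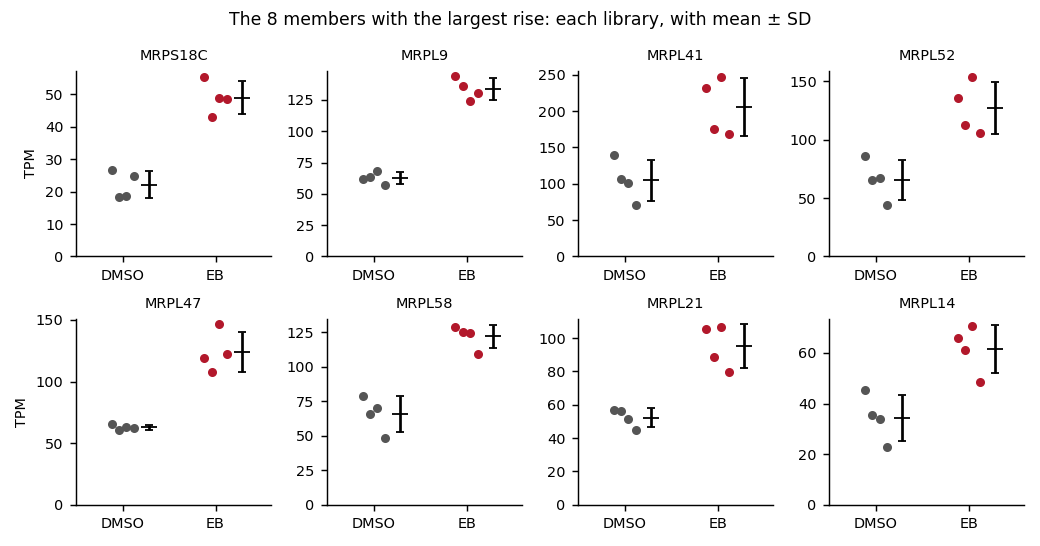
TPM in each of the 4 DMSO and 4 EB libraries for the 8 MRP genes with the largest called rise; each panel starts at 0, points run from replicate 1 to 4 from left to right and the bar beside them is the mean ± SD. EB points lie above every DMSO point in each panel, from 18.4 to 26.6 against 43.0 to 55.5 TPM in MRPS18C, and the rightmost DMSO point, replicate 4, is the lowest DMSO point in all panels but MRPS18C and MRPL47.

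Of the 5 members with the highest level in DMSO, 4 did not pass the test. MRPL4, the large-subunit protein with the highest DMSO mean, went from 260.7 ± 18.4 to 298 ± 24.0 TPM, a log2 fold change of 0.19 (limma adjusted p = 0.217). MRPL37 had 223, 247, 248 and 289 TPM in DMSO and 228, 233, 231 and 242 TPM in EB, groups that overlap, with a log2 fold change of -0.10 (limma adjusted p = 0.509) that was 0.01 under median-ratio scaling. MRPS2 at 247 ± 15.2 and 256 ± 9.70 TPM and MRPS24 at 243 ± 49.9 and 307.6 ± 59.3 TPM (SD, n = 4) had overlapping libraries too. MRPS24 shares 90.9% of its canonical transcript with a readthrough gene on the same strand that was at 2.31 TPM or less in every library. MRPL12, next in level and a protein of the stalk, rose from 195 ± 44.8 to 305 ± 53.8 TPM, with overlapping groups and a log2 fold change of 0.66 (limma adjusted p = 0.0258). That call was lost, with adjusted p-values between 0.0506 and 0.0759, when DMSO replicate 2 or 3 or EB replicate 1 or 3 was left out. MRPL12 shares 69.5% of its canonical transcript with another gene on the same strand that was at 1.93 TPM or less in every library.

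Both subunits held called members. In the large subunit 25 of 51 rose, with a median log2 fold change of 0.47, and in 29 of the 51 the EB libraries were all above the DMSO libraries. The small subunit had 10 of 26 members called higher, a median of 0.35 and 9 members with all EB libraries above. With nuclear genes only, rescaled, 22 of 51 large-subunit members rose with a median of 0.28, and 6 of 26 small-subunit members with a median of 0.16. Leaving out DMSO replicate 4 gave 27 and 10 members, with medians of 0.38 and 0.23. MRPS36, in neither, rose from 24.9 ± 1.05 to 39.6 ± 1.99 TPM (SD, n = 4), by 0.65 on the log2 scale (limma adjusted p = 0.00184). Sorting by symbol alone gave 25 of 49 MRPL genes with a median of 0.48 and 11 of 29 MRPS genes with a median of 0.34. The quartiles of the subunits, 0.23 to 0.68 for the large and 0.14 to 0.50 for the small, overlapped, and no test was run over genes, which are not replicates.

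The members of each subunit were also summed within each library. Large-subunit TPM summed to 4386, 4039, 4201 and 3325 in DMSO and to 5686, 5182, 6054 and 5099 in EB, and small-subunit TPM to 2283, 2136, 2119 and 1801 in DMSO and to 2685, 2488, 2714 and 2390 in EB. DMSO replicate 4 was the lowest library in both sums. The ratio of the large to the small sum, from which the mitochondrial share drops out, was 1.92, 1.89, 1.98 and 1.85 in DMSO and 2.12, 2.08, 2.23 and 2.13 in EB, so that the groups did not overlap. A ratio of the subunits' median members gave 0.888 to 0.947 in DMSO and 0.906 to 1.16 in EB, which do overlap. As a share of all nuclear TPM, the members took 0.807%, 0.786%, 0.803% and 0.844% in DMSO and 0.952%, 0.904%, 1.003% and 0.944% in EB. The highest DMSO share was that of replicate 4, and the lowest EB share, of replicate 2, lay above it.

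**Figure D3:**
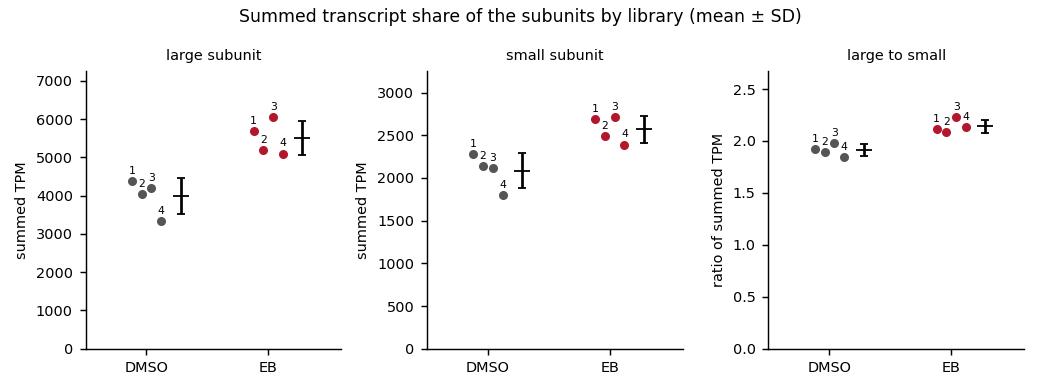
Summed TPM of the 51 large-subunit members (left), of the 26 small-subunit members (middle) and their ratio (right) in each library; small numerals are replicate numbers, bars are the mean ± SD of 4 libraries and all axes start at 0. The EB points lie above the DMSO points in every panel, at 2.08 to 2.23 against 1.85 to 1.98 for the ratio.

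Functional regions of the ribosome were mixed. In the central protuberance, the crown of the large subunit that faces the transfer RNAs, 4 of 6 members rose: MRPL58, MRPL46, MRPL18 and MRPL38. MRPL46 went from 25.3 ± 3.71 to 41.4 ± 2.37 TPM, MRPL18 from 86.9 ± 11.3 to 136 ± 13.8 TPM and MRPL38 from 107 ± 15.9 to 164 ± 11.6 TPM, log2 fold changes of 0.70, 0.64 and 0.63. MRPL48 and MRPL40, the other members there, had log2 fold changes of 0.24 and 0.16 with overlapping libraries. After the length correction described further on, 0 of the 6 were called higher and 1 lower (MRPL40). The background was then 9.69% of all genes tested called higher and 20.7% lower. These 6 members have short transcripts, with a median of 978 nt. MRPL46 and MRPL38 share 73.4% and 94.3% of their canonical transcripts with another gene on the same strand.

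Around the exit tunnel 3 of 6 members rose. Besides MRPL47 these were MRPL24, at 137 ± 21.4 TPM in DMSO and 228 ± 23.3 TPM in EB, and MRPL22, at 30.2, 27.3, 29.1 and 27.4 TPM in DMSO and 53.6, 43.9, 49.5 and 42.7 TPM in EB. MRPL17, at 66.4 ± 14.8 and 91.5 ± 8.44 TPM, had all EB libraries above the DMSO libraries but missed the threshold (log2 fold change 0.48, limma adjusted p = 0.054) and passed it without DMSO replicate 4 at 0.31 (adjusted p = 0.0392). MRPL23 and MRPL45, the latter a membrane anchor of the ribosome, had overlapping groups and log2 fold changes of 0.41 and 0.20. After the length correction, 2 of the 6 exit tunnel members were called higher and 0 lower.

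On the stalk, where translation factors dock, only MRPL12 passed the test. Its partners MRPL11, at 99.1 ± 22.6 and 114 ± 14.6 TPM, and MRPL10, at 52.1 ± 12.3 and 51.8 ± 6.35 TPM (SD, n = 4), had overlapping libraries. For MRPL10 the log2 fold change of 0.02 turned to -0.17 without DMSO replicate 4. After the length correction, 0 of the 3 stalk members were called in either direction. MRPS12, the protein of the decoding site, was called higher at a log2 fold change of 0.73 with a limma adjusted p of 0.0478, but its libraries overlapped, at 94.3, 74.1, 80.5 and 42.1 TPM in DMSO and 143, 105, 144 and 85.3 TPM in EB. Leaving out DMSO replicate 4 gave 0.49 and an adjusted p of 0.0657. Leaving out any one of DMSO replicates 2 and 3 and EB replicates 1, 2 and 3 also lost the call, with adjusted p-values between 0.0677 and 0.124.

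The 3 paralogs of the MRPS18 family are proteins of the same fold that sit in different places, MRPS18C and MRPS18B in the small subunit and MRPS18A in the large. Only MRPS18C was called. MRPS18A stood at 68.2, 65.7, 77.1 and 41.9 TPM in DMSO and 87.2, 74.3, 79.7 and 70.4 TPM in EB, and MRPS18B at 66.8, 60.4, 60.7 and 47.3 TPM in DMSO and 65.5, 64.1, 63.4 and 62.0 TPM in EB. Their groups overlapped, with log2 fold changes of 0.33 and 0.13 (limma adjusted p = 0.185 and 0.47). Without DMSO replicate 4 these became 0.15 and 0.026, and 1.19 in MRPS18C. The difference between the paralogs was not tested. By descent, 21 of the 46 members with a bacterial counterpart rose (median 0.46), as did 14 of the 31 found only in mitochondria (median 0.35). With nuclear genes only, rescaled, these were 19 of 46 (0.28) and 9 of 31 (0.17). The order of the medians turned with the length trend removed, at 0.016 and 0.12. Then 6 of the 46 were higher and 1 lower, and 4 of the 31 higher and 2 lower, against 9.69% and 20.7% of all genes. Median transcript lengths were 1217 nt and 1398 nt. The difference by descent was not tested.

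The letters upstream of these genes were read next, because nuclear genes for the mitochondrial ribosome are textbook targets of the factors GABPA (also called NRF2, distinct from the antioxidant factor of that name) and NRF1. RefSeq promoter windows of 300 bases on GRCh38.p14, from 250 before to 50 after the start, were matched for 69 members. The 7 letters CCGGAAG, the core of GABPA sites, were found on either strand in 29 of the 69 windows (42%), against 10.7% of 27305 windows of all genes and 20.5% of 9488 windows of genes tested here. Among members called higher 14 of 30 held them, and among members not called 15 of 39. The 8 letters GCATGCGC of NRF1 were in 6 member windows (8.7%), against 3.27% of all windows and 5.81% of those tested, and the 8 letters TGATGCAA of the element read by the stress factors ATF4 and CHOP in 0, against 0.923% and 0.443%. A match is a string of letters and not a site shown to be bound.

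To show where the GABPA letters lie, the stretches around them are given for the 6 named members in which they and 10 bases on each side lie before the RefSeq start. Those bases are printed with the matched letters in capitals, and CTTCCGG is the same core read on the other strand. The MRPS18C stretch lies in exons of HELQ. The MRPL38 letters lie inside that gene as annotated in GENCODE (chr17:75898644-75905093).
MRPS18C (called higher, chr4:83455826-83455852, forward strand): ggctcgcggaCCGGAAGcacgcataaa
MRPL47 (called higher, chr3:179604661-179604687, reverse strand): gcttgagacgCCGGAAGtgacgctatc
MRPL58 (called higher, chr17:75012467-75012493, forward strand): tcggggcactCTTCCGGtagcagctcg
MRPL38 (called higher, chr17:75905076-75905102, reverse strand): ccaacgggcaCTTCCGGagccgggcgt
MRPS18A (not called, chr6:43687806-43687832, reverse strand): gcgctacgttCCGGAAGcggaaatgga
MRPL48 (not called, chr11:73787801-73787827, forward strand): atttcagaagCTTCCGGaactaaaatg

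A longer stretch before the RefSeq start is given for the largest rise and for MRPL37. Among the members named by rule, MRPL37 had the lowest log2 fold change (-0.10, overlapping groups). It was called lower with the length trend removed (-0.45). Each stretch is cut to the part that no annotated exon covers, with the NRF1 letters in capitals (here GCGCATGC, the other strand's reading). The first lies between the exons of HELQ and MRPS18C. The second lies before the RefSeq start of MRPL37 but inside the gene as annotated in GENCODE (chr1:54184041-54225464). The exons cut from its window are those of CYB5RL and another gene. MRPL37 held none of the 3 strings, and neither did MRPL9, whose window lies almost wholly in exons of OAZ3 and another gene.
MRPS18C (chr4:83455856-83455931, forward strand): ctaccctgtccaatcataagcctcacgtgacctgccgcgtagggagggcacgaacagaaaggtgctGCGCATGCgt
MRPL37 (chr1:54200074-54200166, forward strand): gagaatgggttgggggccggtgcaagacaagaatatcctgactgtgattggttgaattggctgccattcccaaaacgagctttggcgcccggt

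Fold changes varied with transcript length. Over 11685 nuclear genes with an annotated length, the log2 fold change fell with the length of the canonical transcript (Spearman's rho -0.48, a description over genes that share the same 8 libraries). MRP transcripts are short, with a median of 1242 nt (496 to 15557 nt) against 3222 nt for all of these genes, and over the 78 members rho was -0.31. The genes were sorted by length into 10 bins of nearly equal size. In the shortest bin, 276 to 1225 nt, the median log2 fold change was 0.41 and 42.5% were called higher. It held 39 members, of which 21 rose, with a median of 0.53. Measured against the median of its own length bin, the median member lay 0.18 higher, with 51 of 78 above it. The values were 0.20 (33 of 51) for the large and 0.11 (17 of 26) for the small subunit. These members were spread unevenly. In the 3 shortest bins 24 of 39, 10 of 18 and 2 of 6 members lay above the bin median, and in the longer bins every member did. The large subunit also had the shorter transcripts, with a median of 1175 nt against 1472 nt.

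**Figure D4:**
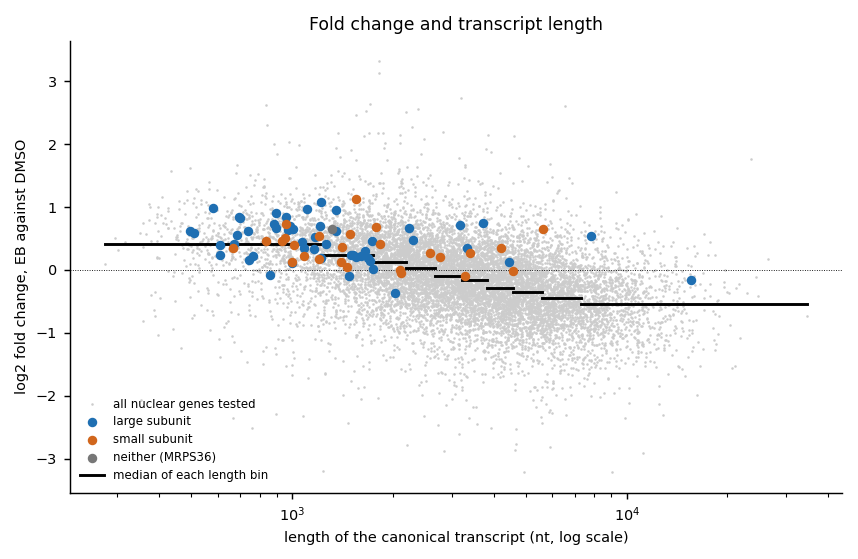
Log2 fold change of EB against DMSO plotted against the length of the canonical transcript in nucleotides on a log scale, for 11685 nuclear genes tested (grey) and the 78 MRP genes (coloured by subunit); black bars are the median of each of 10 length bins. The bars step down from 0.41 in the shortest bin to -0.54 in the longest, and most MRP genes lie in the shortest bins, with 51 of the 78 above the bar of their own bin.

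When the trend with length was removed from every library, 10 members were called higher and 3 lower, against a background of 9.69% and 20.7% of all genes tested. The members' median log2 fold change was then 0.05, against -0.12 over all genes, with 0.08 in the large and 0.01 in the small subunit. Of the 10, 9 had been called before the correction: MRPS18C (0.79), MRPL9 (0.67), MRPL47 (0.58), MRPL22 (0.70), MRPL35 (0.81), MRPL57 (0.47), MRPS23 (0.92), MRPS33 (0.48) and MRPL50 (0.36), all log2 fold changes after removal. MRPL19, with 0.90, joined them. MRPL19 had 38.0 TPM in EB replicate 2 and 21.2 to 21.6 TPM in the other EB libraries, against 10.5 to 20.8 TPM in DMSO. The 3 members called lower were MRPL40 (-0.38), MRPL32 (-0.59) and MRPL37 (-0.45), whose DMSO and EB libraries overlapped in TPM as deposited.

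Several of the members that stayed have long annotated transcripts, among them MRPS23 with 5609 nt, MRPS33 with 4210 nt, MRPL35 with 3723 nt, MRPL50 with 3336 nt and MRPL22 with 3173 nt. Among the members, the corrected fold change rose with length (Spearman's rho 0.29, n = 78), the reverse of the uncorrected order. With the longest annotated transcript in place of the canonical one, 17 members were called higher and 3 lower. Over the 11725 genes tested, 1232 were then called higher and 2535 lower. Which transcript was expressed is not given in the table. MRPS23, a small-subunit protein without a bacterial counterpart, rose from 17.6, 13.7, 13.4 and 10.7 TPM in DMSO to 23.4, 22.1, 25.3 and 18.2 TPM in EB. MRPL35, of bacterial descent, rose from 55.2, 46.8, 53.9 and 37.2 TPM to 85.9, 82.0, 81.7 and 72.3 TPM. No library of one group reached into the other in either gene.

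**Figure D5:**
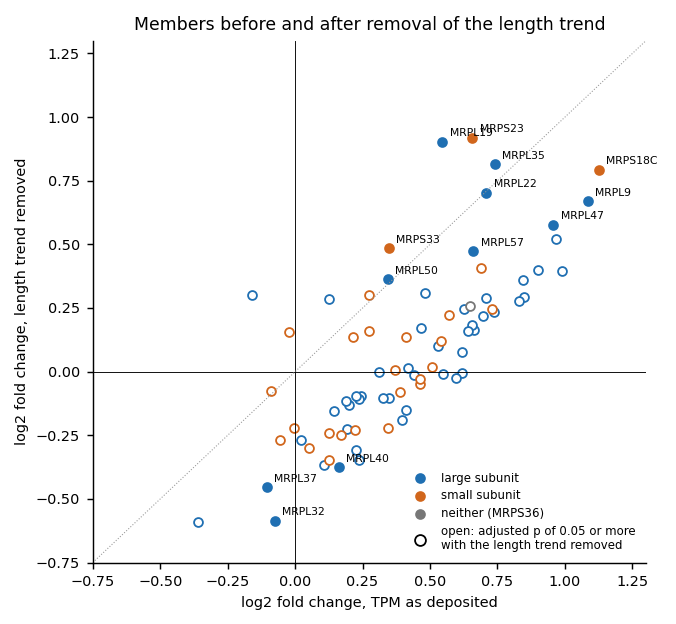
Log2 fold change of the 78 MRP genes from TPM as deposited (horizontal) and after the trend with transcript length was removed from each library (vertical); colours mark the subunit, filled and named points had an adjusted p under 0.05 after removal, and the dotted line marks equal values. Most points drop below the dotted line, the median moving from 0.41 to 0.05, and the named points are 10 above 0 and 3 below it.

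Genes that work with these proteins were looked at from lists compiled by hand, to be read against the 15.2% of all genes tested called higher and the 25.1% called lower. The 5 mitochondrial ribosome subunits that lack an MRP symbol all passed the test. GADD45GIP1 rose from 146 ± 21.5 to 317 ± 23.7 TPM, AURKAIP1 from 232 ± 78.3 to 422 ± 77.2 TPM, CHCHD1 from 65.9 ± 12.5 to 106 ± 13.0 TPM and DAP3 from 103 ± 5.26 to 156 ± 13.3 TPM, whereas PTCD3, a small-subunit protein with a long transcript of 6681 nt, fell from 30.2 ± 3.11 to 20.7 ± 2.39 TPM (SD, n = 4). With the length trend removed GADD45GIP1 and DAP3 were still called higher, and PTCD3 was no longer called (-0.20, limma adjusted p = 0.255).

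Among 16 translation factors 2 rose (12.5%), TACO1 by 0.61 and the release factor MTRF1L by 0.45 on the log2 scale, and 2 fell (12.5%), the elongation factor GFM1 (-0.81) and the rescue factor MTRFR (-0.51). Lower calls numbered 4 without DMSO replicate 4 and 5 with nuclear genes only, rescaled, with 2 higher in both. Of 27 assembly factors 6 rose (22.2%), led by RPUSD3 (0.85), MALSU1 (0.82), NGRN (0.62) and MRM3 (0.58), and 1 fell (3.7%), the GTPase NOA1 (-0.44). The same 2 settings gave 3 (11.1%) and 4 (14.8%) lower, with 6 higher in both.

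Of 12 genes that express the mitochondrial genome, SLIRP (0.997), TEFM (0.41) and TFB2M (0.38) were among 4 that rose, and LRPPRC, which binds mitochondrial messages together with SLIRP, fell from 87.8 ± 6.97 to 66.0 ± 6.30 TPM. With nuclear genes only, rescaled, 1 of the 12 was called higher and 3 lower, against 12.3% and 41.3% of all genes. After removal of the length trend, against 9.69% higher and 20.7% lower over all genes, the translation factors had 1 higher and 2 lower and the assembly factors 5 higher and 2 lower. The 12 then had 0 in either direction by limma, with 2 higher and 0 lower at an unadjusted p under 0.05, and LRPPRC stood at -0.09 (limma adjusted p = 0.584).

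The messages this ribosome translates were lower in part. Of the 13 messenger RNAs of the mitochondrial genome 6 fell and 0 rose, by limma, with 7 lower and 0 higher at an unadjusted p under 0.05, and the median log2 fold change was -0.65. Without DMSO replicate 4, the library with the largest mitochondrial share, 5 fell (38.5%) and the median was -0.41. Under median-ratio scaling 2 fell (15.4%). Over all genes tested, 36.4% were called lower without that library and 26.3% under median-ratio scaling. With the length trend removed, 11 fell (84.6%), against 20.7% of all genes tested, and the median was -1.12. MT-ND4L, a subunit of complex I, had 11580, 14960, 15370 and 26700 TPM in DMSO and 4709, 6576, 3229 and 6188 TPM in EB, a log2 fold change of -1.71 (limma adjusted p = 0.00192) that was -1.47 without DMSO replicate 4. MT-ND5 fell by 1.15 and MT-CYB by 0.86 on the same scale, and by 0.92 and 0.65 without that library. MT-ATP8 was called at -1.02, but not without that library (-0.68, limma adjusted p = 0.0626). Under median-ratio scaling MT-CYB and MT-ATP8 were not called (adjusted p = 0.0744 and 0.115).

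Other short, abundant gene groups were set beside the members. Of 79 cytosolic ribosomal protein genes 31 rose and 0 fell, with 43 and 0 at an unadjusted p under 0.05, and the median log2 fold change was 0.36. Of 77 tested nuclear subunits of the respiratory chain and ATP synthase 32 rose and 2 fell, with a median of 0.42. These medians lie near the 0.41 of the MRP genes. With nuclear genes only, rescaled, 22 of the 79 rose with a median of 0.18, and 29 of the 77 rose and 5 fell with a median of 0.23. The background there was 12.3% of all genes called higher and 41.3% lower. With the length trend removed the medians were -0.10 and -0.07, against 0.05 in the MRP genes. Then 5 were higher and 6 lower in the first group, and 8 higher and 4 lower in the second. Over all genes, 9.69% were then higher and 20.7% lower. The differences between these groups were not tested.

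Overlap with other genes touches many members. Exons of 31 members overlap those of another gene, and 13 of these rose with a median of 0.34. In the 47 without such overlap 23 rose, with a median of 0.42. Of the 20 members whose overlap is with a gene of the expression table, 10 rose, with a median of 0.50. The annotation also lists 79 MRP pseudogenes, none of which has a row in the table, and how reads shared with them were assigned is not given in the sources used here.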

How the data were processed

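RNA was sequenced from PANC-1 cells, 4 libraries with DMSO and 4 with EB. The authors deposited 1 table of TPM, normalized within each library, which was used as deposited. Their methods name CLC Genomics Workbench, HISAT2 and StringTie, and both the mouse build GRCm38 and the human build hg38. All gene identifiers are human. Read counts were not used here, so depth is unknown and no counting interval is given. The columns lettered C and H were read as DMSO and EB by replicate number, C as control and H as the group that remained.

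Symbols, positions and exonic lengths of canonical transcripts came from GENCODE 44 on hg38. On log2(TPM + 1), the groups were compared by limma (version 3.58.1, R version 4.3.3; lmFit, eBayes without trend) for genes that reached a TPM of 1 in 4 or more libraries, with Benjamini-Hochberg adjustment over every gene tested. Fold changes are on that scale and understate those of low genes. The length trend was removed from each library by loess (span 0.3). The alternatives tried were quantile normalization, scaling by median ratios, nuclear genes only, an intensity trend, GC content, the longest transcript, the study's thresholds, a replicate block, a pseudocount of 0.1, a minimum TPM of 5 or none, subunits by symbol, and each library left out. The test was checked on simulated data.

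The members, lists and tests were chosen with earlier results of these data known. Named were the 8 largest rises and falls past the test, the 5 highest DMSO means, the members of 5 regions or families and up to 4 genes of each other list. Other members were named after their values were seen, for their variation or their call after length correction. Promoter sequences are from RefSeq on GRCh38.p14.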

Additional observations from a re-analysis of the deposited data

Results flagged for a closer look

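In 9 of the 156 sets of 4 libraries (each member in each group), 1 library lay far from the other three by Dixon's 95% criterion, where chance flags about 7.8. The high ones were MRPL1 in DMSO replicate 4 at 30.9 TPM, MRPS9 in DMSO replicate 4 at 101.6 TPM, MRPL30 in DMSO replicate 3 at 52.3 TPM, MRPS11 in DMSO replicate 3 at 22.2 TPM, MRPL19 in EB replicate 2 at 38.0 TPM and MRPL34 in EB replicate 3 at 101.6 TPM. The low ones were MRPL1 in EB replicate 1 at 32.6 TPM, MRPL50 in EB replicate 2 at 20.5 TPM and MRPL42 in EB replicate 4 at 7.19 TPM. Of the 9, 2 were in DMSO replicate 4, and there both values were above those of the other DMSO libraries, whereas that library held the lowest DMSO value in 54 of the 78 members. MRPL34 was high in replicate 3 of both groups, at 90.9 TPM in DMSO replicate 3 against 24.8 to 37.1 TPM in the other DMSO libraries and 30.1 to 40.8 TPM in the other EB libraries.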

How the results depend on the processing

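The count of members called higher was 56 under median-ratio scaling, 10 with the length trend or the length and GC trends removed, 17 with the longest transcript's trend removed and 7 with nuclear genes only and the length trend removed. It was 0 under the study's thresholds by limma, at which 43 had an unadjusted p under 0.05 without the fold threshold. The members called lower were 3, 3, 3 and 19 under the same 4 removals. Their median log2 fold change was 0.048, 0.032, 0.13 and -0.14, with 0.078, 0.05, 0.13 and -0.11 in the large and 0.013, 0.005, 0.13 and -0.18 in the small subunit. Over all genes, the number called higher was 3039 under median-ratio scaling, 2792 under quantile normalization, 1136 with the length trend and 1138 with the length and GC trends removed, 922 with nuclear genes only and the length trend removed, and 63 under the study's thresholds. The number called lower was 4840 with nuclear genes only, with and without the length trend, and 181 under those thresholds. Removing the trend of the longest transcript gave 1232 of all genes higher and 2535 lower. Leaving out 1 library at a time gave 27 to 38 members called higher, 0 called lower, and 1950 (without DMSO replicate 3) to 4218 (without DMSO replicate 4) of all genes called lower. Under quantile normalization, the sign turned in MRPL4 (-0.032), MRPS2 (-0.17) and MRPL10 (-0.008). With the length trend removed, the sign turned in MRPL4 (-0.23), MRPS2 (-0.30), MRPS24 (-0.22), MRPS18A (-0.11), MRPS18B (-0.24), MRPL23 (-0.15), MRPL10 (-0.27), MRPL11 (-0.095), MRPL40 (-0.38), MRPL45 (-0.13) and MRPL48 (-0.11). With the length and GC trends removed, the sign turned in MRPL4 (-0.18), MRPS2 (-0.28), MRPS24 (-0.22), MRPS18A (-0.093), MRPS18B (-0.26), MRPL23 (-0.11), MRPL10 (-0.27), MRPL11 (-0.10), MRPL40 (-0.41), MRPL45 (-0.14) and MRPL48 (-0.12). With the trend of the longest transcript removed, the sign turned in MRPL4 (-0.19), MRPS2 (-0.31), MRPS24 (-0.011), MRPS18A (-0.16), MRPS18B (-0.25), MRPL23 (-0.14), MRPL10 (-0.28), MRPL11 (-0.033), MRPL40 (-0.38), MRPL45 (-0.19) and MRPL48 (-0.084). With nuclear genes only and the length trend removed, the sign turned in MRPL4 (-0.41), MRPS2 (-0.49), MRPS24 (-0.42), MRPL12 (-0.005), MRPS18A (-0.29), MRPS18B (-0.43), MRPL23 (-0.34), MRPL18 (-0.029), MRPL10 (-0.46), MRPL11 (-0.28), MRPL40 (-0.57), MRPL45 (-0.32) and MRPL48 (-0.29). Under median-ratio scaling, the sign turned in MRPL37 (0.011). With nuclear genes only, the sign turned in MRPS2 (-0.13), MRPS18B (-0.058), MRPL10 (-0.16) and MRPL40 (-0.02). Without DMSO replicate 4 the fold change of MRPL10 was -0.17, the lowest of its values with 1 library left out, which reached 0.11 without DMSO replicate 3. These fold changes are on the log2 scale. The cause was not tested beyond the removal that defines each setting.

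Whether the replicate numbers pair the libraries was left unsettled. Same-numbered libraries correlated at 0.18, 0.046, -0.088 and 0.28 in their deviations from the group means. Of the 4 DMSO libraries, 2 correlated best with the EB library of their own number. The mitochondrial share of TPM was lowest in replicate 1 and highest in replicate 4 of both groups, at 17.01% and 39% in DMSO and 11.64% and 20.29% in EB. With the replicate block 44 members were called higher and 0 lower, against 36 and 0 without it, with 2231 and 3525 of all genes. Depth is unknown in TPM, so no statement here rests on it, and the absolute amount of RNA per cell was not measured.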

Other observations

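The members with the widest spread, chosen after their values were seen, were MRPL30, MRPL34, MRPL42 and MRPL49, each with a coefficient of variation above 40% in at least 1 group. MRPL30, a large-subunit protein of bacterial descent, fell into high and low libraries in both groups, at 19.4, 21.1, 52.3 and 17.8 TPM in DMSO and 53.1, 16.4, 52.7 and 11.6 TPM in EB. Its canonical transcript shares exons with readthrough genes on the same strand. MRPL42 had 10.5, 9.60, 29.4 and 16.7 TPM in DMSO and 15.8, 16.6, 16.4 and 7.19 TPM in EB, and its canonical transcript is the longest of all members at 15557 nt. MRPL49 was at 58.7, 39.1, 82.9 and 24.7 TPM in DMSO and at 37.9, 30.4, 28.1 and 52.5 TPM in EB. In none of these genes were the groups separate, and none passed the test in the TPM as deposited.

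A further 6 members had every EB library above every DMSO library without passing the test. Besides MRPL17 and MRPL19 these were MRPL16, MRPL3, MRPS30 and MRPS11, with log2 fold changes of 0.35, 0.15, 0.31 and 0.28. MRPS30, the large-subunit protein with a small-subunit name, went from 84.6, 93.4, 104 and 96.5 TPM in DMSO to 112, 118, 118 and 121 TPM in EB, with a limma adjusted p of 0.0533.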
